A study of Mus musculus with 23 samples.

Results

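The subject is a difference of differences: the effect of octadecenoic acid (OA) in CD8+ T cells of mice with a T cell deletion of Plpp1, as labelled (KO), minus its effect in CD8+ T cells of floxed mice without Cre (WT), gene by gene. Groups were taken by name, and 15 of the 23 libraries of the series enter the contrast. The KO libraries come from Lckcre-PLPP1fl/fl mice, in which Cre recombinase is driven by the Lck promoter, active in T cells, and the floxed Plpp1 alleles are its target. The WT libraries come from PLPP1fl/fl mice, which carry the same floxed alleles and no Cre. There were 3 libraries of KO cells with OA, 4 of KO cells without added fatty acid, 4 of WT cells with OA and 4 of WT cells without added fatty acid. CD8+ T cells were isolated from spleen. The labels give no dose, exposure time, activation, age or double-bond position of the fatty acid, and they do not say which libraries share an animal, so every p-value measures the spread between these libraries only. Total counts in the 15 libraries ran from 39265131 to 56531567.

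PLPP1 is a phospholipid phosphatase that removes phosphate from lysophosphatidate, phosphatidate and related lipids at the cell surface and in internal membranes. Octadecenoic acids are monounsaturated long-chain fatty acids that T cells can burn in mitochondria, build into phospholipids or store in lipid droplets. Lipid load is read by several transcription factors: PPARs turn on oxidation genes, LXRs turn on cholesterol export genes, and SREBPs turn on synthesis of sterols and unsaturated fatty acids. A CD8+ T cell ties these programmes to its state, since sterol and fatty acid synthesis, glycolysis and ribosome building rise together when it is activated.

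All values below are counts scaled by library size, written CPM, or log2 ratios. The difference is always the OA effect in KO cells (KO with OA over KO without) minus the OA effect in WT cells (WT with OA over WT without), with its standard error. A positive difference means that OA raised the gene more, or lowered it less, in KO cells. A gene is called at an adjusted p under 0.05 in edgeR's quasi-likelihood test over 18015 genes. Where a list is described, a count above or below 0 is a count of called genes.

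The OA effect differed between KO and WT cells at 2227 of 18015 tested genes, 12.4% of them. The difference was above 0 at 1028 genes (5.71%) and below 0 at 1199 (6.66%), and the median over all tested genes was -0.02. These percentages are the background for every list below. They include many genes of low level. With the stricter filter, which keeps genes of higher level, 2359 of 8784 genes were called, a larger share. A list of well-expressed genes can therefore exceed 12.4% without standing out from genes of like level. Most differences were small: 228 of the called genes reached a 1.5-fold ratio of effects and 74 reached 2-fold. With upper quartile scaling the split turned to 1260 above and 961 below 0. It also turned with the scaling method kept but its factors recomputed, to 1269 above and 1035 below with the 15 libraries alone. It was 1129 and 936 without WT replicate 4. Without WT replicate 1, 2 or 4 with OA it was 1068 and 928, 1028 and 899, and 945 and 835. In these settings the median shift of the log2 differences from the main fit was 0.013 to 0.016. With upper quartile scaling it was 0.023. The balance between the directions therefore depends on the scaling factors, which change with the libraries fitted, and the parts of factors and libraries were not separated. Without KO replicate 4, which stood apart at a handful of transcripts, 861 genes were above and 1002 below 0.

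In the called genes the larger OA effect was, by the medians, that in KO cells. Among the 1028 genes above 0, the median OA effect was 0.24 in KO cells and -0.05 in WT cells. Among the 1199 below 0, the medians were -0.26 in KO cells and 0.04 in WT cells. Tested on its own in each genotype, OA changed 4166 genes in KO cells (1875 or 10.4% higher, 2291 or 12.7% lower, together 23.1% of those tested) and 670 in WT cells (219 or 1.22% higher, 451 or 2.5% lower, together 3.72%). These effects share no library. They had 444 genes in common, 10.7% of the KO list and 66.3% of the WT list, of which 402 moved the same way and 42 opposite ways. The unequal counts alone are no test of a difference between the genotypes. That test is the per-gene contrast.

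**Figure D1:**
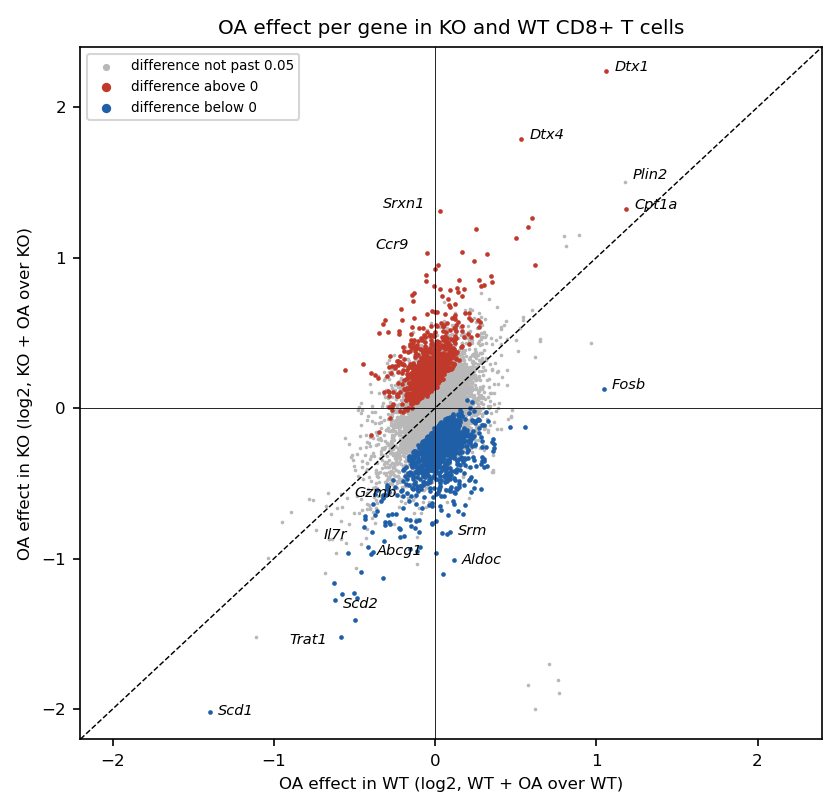
OA effect in KO cells (vertical, log2 of KO with OA over KO) against OA effect in WT cells (horizontal, log2 of WT with OA over WT) for 11886 genes with a mean log2 CPM of at least 1. Red points are called above 0 and blue points below 0, the dashed line marks equal effects, and most coloured points lie near 0 on the horizontal axis and spread along the vertical one. Cpt1a and Plin2 sit far up near the line and Scd1 far down; the 5 grey points at the lower right are transcripts that were high in 1 untreated KO library and in 1 WT library with OA.

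Genotype here carries more than Plpp1, and this touches every result. Trbv12-1, a T cell receptor beta segment, took 3.27 to 4.04% of Trbv counts in KO cells with OA and 3.58 to 3.87% in untreated KO cells, against 84.1 to 86.0% in WT cells with OA and 81.6 to 84.2% in untreated WT cells. The Trav14 family took 10.02 to 11.8% of Trav counts over the KO libraries and 78.0 to 81.5% over the WT libraries. Xist, transcribed from the inactive X chromosome of females, stood at 2.98 to 5.35 CPM over the KO libraries and 784 to 866 CPM over the WT libraries. Ddx3y, from the Y chromosome, stood at 98.02 to 107 CPM over the KO libraries and 56.9 to 61.9 CPM over the WT libraries. Receptor segments and sex-linked transcripts therefore ran with genotype in every library, and their part in a difference cannot be told apart from that of the Plpp1 deletion. Every WT library held both Xist and Ddx3y, within these narrow ranges. Whether libraries of a genotype come from a shared pool of cells is not in the labels and was not tested. In bulk RNA, fewer cells of a state and less RNA per cell also cannot be told apart.

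Plpp1 itself was almost silent. Its counts were 15, 37 and 25 in KO cells with OA, 19, 19, 25 and 21 in untreated KO cells, 21, 29, 39 and 23 in WT cells with OA, and 32, 20, 17 and 32 in untreated WT cells. All 4 groups overlap, so at this depth the gene does not check the genotype labels, and its exons overlap those of Skiv2l2. The difference of its OA effects was -0.06 ± 0.45 (95% interval -0.97 to 0.84, adjusted p = 0.955).

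Cholesterol synthesis was among the lists with the largest shares of calls of the 33 examined. Of 25 tested genes of sterol synthesis and uptake, 15 were below 0 and none above, with a median difference of -0.28, against -0.02 over all genes. The median OA effect was -0.29 in KO and -0.06 in WT cells. Over the other settings and left-out libraries the count below 0 stayed between 11 and 15, and 1 was above 0 without WT replicate 4 with OA. At an unadjusted p under 0.05, edgeR put 16 below and 1 above 0, and DESeq2 and limma-voom each called 15 below and 0 above.

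**Figure D2:**
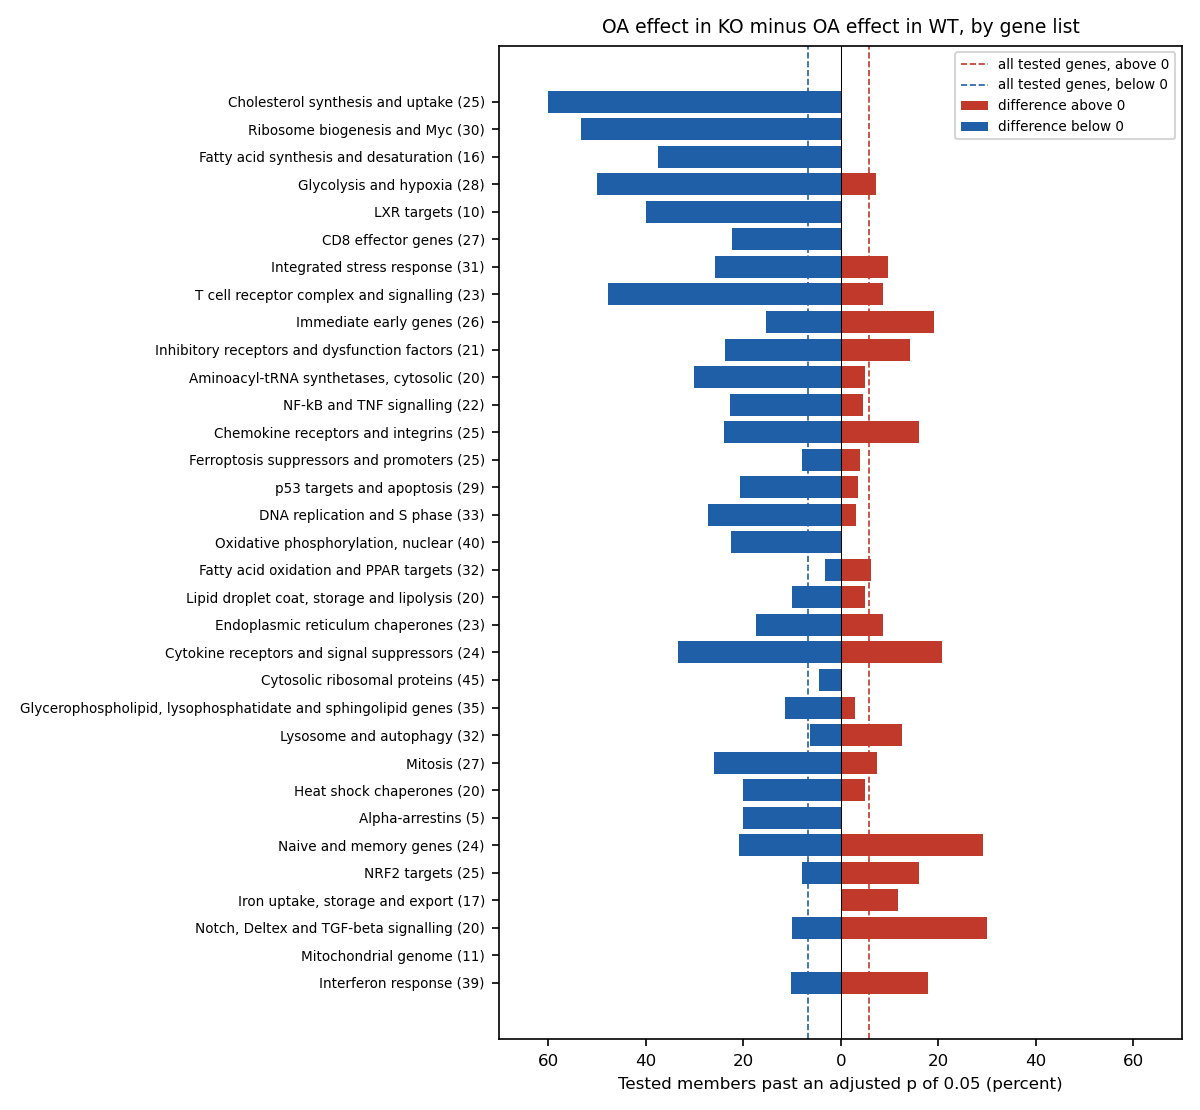
Percent of the tested members of each of 33 gene lists with a called difference of OA effects, below 0 to the left in blue and above 0 to the right in red, with the number tested in brackets; lists are sorted by median difference and dashed lines mark the shares over all 18015 genes. Cholesterol synthesis, ribosome biogenesis, glycolysis and T cell receptor signalling have the longest blue bars, and Notch, Deltex and TGF-beta signalling and naive and memory genes the longest red ones.

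Idi1, the isomerase that makes the building block of sterols (chr13:8885501-8892451, plus strand), had 55.9, 55.98 and 54.5 CPM in KO cells with OA, 71.1, 75.2, 74.96 and 74.5 CPM in untreated KO cells, 30.1, 30.5, 29.9 and 31.4 CPM in WT cells with OA, and 26.7, 28.4, 30.8 and 27.8 CPM in untreated WT cells. KO cells with OA lay below untreated KO cells with no overlap, while the WT groups overlapped. The difference was -0.52 ± 0.06 (adjusted p = 1.6e-08), and the KO over WT log2 ratio was 0.86 with OA, against 1.38 without it.

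Hmgcs1, the synthase that commits acetyl-CoA to the pathway (chr13:119690462-119708086, plus strand), had 67.7, 68.5 and 68.99 CPM in KO cells with OA, 93.3, 95.7, 91.05 and 95.1 CPM in untreated KO cells, 50.7, 51.8, 52.7 and 52.9 CPM in WT cells with OA, and 51.02, 55.1, 54.9 and 56.3 CPM in untreated WT cells. The pattern was that of Idi1, with separate KO groups and overlapping WT groups. Its difference was -0.39 ± 0.05 (adjusted p = 3.45e-07). Srebf2, which encodes the SREBP that drives these genes, differed by -0.37 ± 0.05 (adjusted p = 5.09e-06), and its levels with OA were 70.1 to 73.1 CPM in KO cells and 67.5 to 72.2 CPM in WT cells.

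Members differed in how WT cells responded. Fdps, which makes farnesyl diphosphate, and Cyp51, which demethylates lanosterol, fell with OA in both genotypes and fell further in KO cells. The OA effects were -0.70 in KO and -0.24 in WT cells for Fdps and -0.55 in KO and -0.21 in WT cells for Cyp51, with differences of -0.46 ± 0.09 and -0.34 ± 0.05 (adjusted p = 0.000328 and 1.68e-05). Insig1, which holds SREBPs in the endoplasmic reticulum, had OA effects of -0.45 in KO and -0.36 in WT cells, and its difference of -0.10 ± 0.08 was not called (adjusted p = 0.517, 95% interval -0.26 to 0.07). Exons of Fdps overlap those of the annotated gene Gm43738, so its counts are uncertain. So are those of Cyp51, of which 166 exon bases overlap Akap9, at a mean of 670.6 CPM against 59.8 CPM for Cyp51.

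The Hmgcs1 promoter is shown because it was the promoter with a sterol element among the 17 tested cholesterol genes that have one in the RefSeq table. The Myc box CACGTG, by comparison, occurred in 1 of the 23 ribosome biogenesis promoters, that of Nop2, against 8.08% of promoters of tested genes. The sterol letters TCACNCCAC, on either strand within 250 bases before the start, occur in 0.963% of the 10804 promoters of tested genes. They occur in 0.817% of promoters of genes called below 0 and in 1.41% of those called above 0. The match, in capitals, lies within chr13:119690194-119690242 on the plus strand of GRCm38.p6, 137 bases before the RefSeq start. It is a match of letters and not evidence of binding.
Hmgcs1: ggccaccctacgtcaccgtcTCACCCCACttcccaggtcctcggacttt

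Stearoyl-CoA desaturases make octadecenoic acid inside the cell, and transcripts of Scd1 and Scd2 fell with OA in both genotypes. Of 16 tested genes of fatty acid synthesis and desaturation, 6 were below 0 and none above, with a median difference of -0.23. Scd2, a desaturase, had the smallest adjusted p in the table. Its levels were 172, 161 and 166 CPM in KO cells with OA, 398, 422, 389 and 403 CPM in untreated KO cells, 246, 241, 243 and 245 CPM in WT cells with OA, and 393, 358, 379.6 and 367 CPM in untreated WT cells. The untreated groups overlapped, both groups with OA were lower, and all KO libraries with OA lay below all WT libraries with OA. The OA effect was -1.28 ± 0.04 in KO and -0.62 ± 0.03 in WT cells, a difference of -0.66 ± 0.05 (adjusted p = 4.24e-13).

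Scd1, its close relative, had OA effects of -2.02 in KO and -1.40 in WT cells. With OA its levels were 1.52 to 1.77 CPM in KO and 1.28 to 1.85 CPM in WT cells, and without OA 5.69 to 7.51 CPM in KO and 3.56 to 4.36 CPM in WT cells. The groups with OA overlapped and the untreated groups did not. Its difference of -0.62 ± 0.19 (adjusted p = 0.0251) was not called when KO replicate 4, KO replicates 2 or 3 with OA, WT replicate 2 or WT replicate 4 with OA was left out (highest adjusted p 0.104). Srebf1, whose SREBP drives fatty acid synthesis, differed by -0.44 ± 0.08 (adjusted p = 5.3e-05). Acly, Acaca and Fasn, which turn citrate into palmitate, differed by -0.19, -0.23 and -0.20, and each was called (adjusted p = 0.00462, 0.0108 and 0.0164). The call of Fasn was lost without KO replicate 1 with OA (adjusted p = 0.0618) or WT replicate 1 (adjusted p = 0.0578). Fads2, the first desaturase of polyunsaturated fatty acids, had OA effects of -1.52 in KO and -1.11 in WT cells, and its difference of -0.41 ± 0.17 was not called (adjusted p = 0.123).

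Cholesterol exporters that LXRs control followed the same direction. Of 10 tested LXR targets, 4 were below 0 and none above, with a median of -0.19. Abca1, which loads cholesterol onto lipoproteins, had 7.599, 6.54 and 6.31 CPM in KO cells with OA, 11.7, 12.1, 10.3 and 11.8 CPM in untreated KO cells, 21.2, 19.4, 18.1 and 18.97 CPM in WT cells with OA, and 19.2, 20.5, 23.02 and 21.7 CPM in untreated WT cells. KO cells with OA were lowest with no overlap, and the WT groups overlapped. The difference was -0.63 ± 0.10 (adjusted p = 3.39e-05). Abcg1, its partner exporter, fell in both genotypes, with OA effects of -0.93 in KO and -0.41 in WT cells and a difference of -0.51 ± 0.08 (adjusted p = 1.02e-05). Mylip, a ubiquitin ligase, differed by -0.27 ± 0.07 (adjusted p = 0.0106, 0.0538 without KO replicate 3 with OA).

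Genes of fatty acid oxidation gave few differences. Of 32 tested oxidation and PPAR target genes, 2 were above and 1 below 0, together 9.38%, under the 12.4% of all genes, with a median difference of -0.06, and the OA effect was called above 0 at 9 of them in KO cells (10.4% of all genes) and at 7 in WT cells (1.22% of all genes). Cpt1a, the gate for fatty acids into mitochondria, had 152, 149 and 147 CPM in KO cells with OA, 60.1, 59.1, 58.98 and 61.4 CPM in untreated KO cells, 125, 123, 122 and 127 CPM in WT cells with OA, and 53.6, 57.3, 53.2 and 54.3 CPM in untreated WT cells. Both genotypes were higher with OA, 2.498-fold in KO and 2.27-fold in WT cells. Its difference of 0.14 ± 0.05 was narrowly called (adjusted p = 0.0469) and lost under 10 of 23 alternatives (highest adjusted p 0.176), among them those without any one of the 3 KO libraries with OA, without KO replicate 1, 2 or 3, without WT replicate 2, or without WT replicate 3 with OA. Acadvl, which starts the oxidation of long chains, rose by 0.58 in KO and 0.54 in WT cells, and Etfdh, which passes the electrons on, by 0.53 in KO and 0.41 in WT cells, with differences of 0.04 and 0.11 that were not called. Exons of Acadvl overlap those of Dvl2. Slc25a20, the carnitine carrier, was called at 0.33 ± 0.11 (adjusted p = 0.0359), a call lost without KO replicate 1, 2 or 3, KO replicate 2 or 3 with OA, WT replicate 1, or WT replicate 1 or 3 with OA (highest adjusted p 0.120).

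Lipid droplet genes gave few calls, 3 of 20 tested or 15%, near the 12.4% of all genes. Plin2, the coat protein of lipid droplets, had 20.8, 23.3 and 21.7 CPM in KO cells with OA, against 7.89, 7.55, 7.15 and 8.35 CPM in untreated KO cells. It had 21.4, 20.8, 19.8 and 24.8 CPM in WT cells with OA, against 8.21, 8.59, 10.5 and 11.2 CPM in untreated WT cells. Both genotypes rose with no overlap, and the difference of 0.33 ± 0.12 was not called (adjusted p = 0.0716), although 7 of 23 alternatives called it, among them those without WT replicate 1, WT replicate 2 or WT replicate 4 with OA (lowest adjusted p 0.0169). Dgat1, which makes the stored triglyceride, behaved otherwise: it had 12.5, 12.4 and 13.01 CPM in KO cells with OA, 6.86, 6.93, 6.71 and 8.45 CPM in untreated KO cells, 13.6, 13.2, 12.8 and 13.6 CPM in WT cells with OA, and 13.5, 12.5, 14.6 and 12.96 CPM in untreated WT cells. KO cells without OA were low, and the other 3 groups overlapped. Its difference was 0.82 ± 0.10 (adjusted p = 8.46e-08). Of the 20 tested droplet genes, 1 was above and 2 below 0; 2 were above without WT replicate 1 or 2 or WT replicate 4 with OA, and 1 was below without KO replicate 1 or 2, KO replicate 2 or 3 with OA, WT replicate 2 or 4, or any single WT library with OA. Fabp5, a cytosolic fatty acid carrier, differed by -0.34 ± 0.07 (adjusted p = 0.000729), and Pnpla2, the triglyceride lipase, by -0.22 ± 0.08 (adjusted p = 0.0489), a call that was lost under 16 of 23 alternatives (highest adjusted p 0.202, without KO replicate 2 with OA).

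Genes of ribosome building and of glycolysis had the next largest sets of differences below 0. Of 30 tested genes of ribosome biogenesis and Myc, 16 were below 0 and none above (15 to 17 over all alternatives), with a median of -0.24 and median OA effects of -0.27 in KO and -0.05 in WT cells. Srm, spermidine synthase and a classic Myc target, had 5.52, 5.11 and 4.15 CPM in KO cells with OA, 7.94, 9.05, 8.44 and 9.603 CPM in untreated KO cells, 4.704, 4.56, 3.56 and 4.79 CPM in WT cells with OA, and 4.07, 4.58, 3.59 and 4.25 CPM in untreated WT cells. Untreated KO cells were highest, and KO cells with OA overlapped the WT groups, which overlapped each other. Its difference was -0.92 ± 0.15 (adjusted p = 2.6e-05). Cad, which starts pyrimidine synthesis, differed by -0.57 ± 0.07 (adjusted p = 4.15e-08), Polr1b, a subunit of RNA polymerase I, by -0.58 ± 0.11 (adjusted p = 0.000142), and Gnl3, nucleostemin, by -0.44 ± 0.05 (adjusted p = 1.98e-08).

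Myc was itself called, by a smaller difference of -0.22 ± 0.06 (adjusted p = 0.0107), with OA effects of -0.08 in KO and 0.14 in WT cells. Not every nucleolar gene was called: Ncl and Npm1, nucleolar chaperones, had differences of 0.20 and 0.08 that were not called (adjusted p = 0.258 and 0.39). Of 45 cytosolic ribosomal protein genes, 2 were below 0 and none above. The count below 0 depended on single libraries: it was 4 without KO replicate 3 or WT replicate 3 with OA, 1 without KO replicate 4, KO replicate 1 with OA, WT replicate 2 or 4, or WT replicate 1 or 2 with OA, and 0 without WT replicate 4 with OA, and 1 was above 0 without KO replicate 1. With no filter it was 5 and with limma-voom 4. Aminoacyl-tRNA synthetases gave 6 below and 1 above 0 of 20, and none above without KO replicate 2 or 4, KO replicate 2 or 3 with OA, WT replicate 1 or 2, or WT replicate 1 or 4 with OA. Genes of the integrated stress response gave 8 below and 3 above 0 of 31, and 1 above without KO replicate 2, KO replicate 1 with OA or KO replicate 3 with OA. Atf4, the transcription factor that drives the stress response, differed by -0.06 ± 0.05 and was not called (adjusted p = 0.536), whereas Asns, asparagine synthetase and one of its targets, differed by -0.34 ± 0.09 (adjusted p = 0.00955).

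Of 28 glycolysis and hypoxia genes, 14 were below and 2 above 0 (12 to 15 below over all alternatives), with a median of -0.20. The median OA effect was -0.09 in KO and 0.08 in WT cells. Tpi1, triose phosphate isomerase (chr6:124810586-124814296, minus strand), had 148, 153 and 160.1 CPM in KO cells with OA, 188, 199, 182 and 201 CPM in untreated KO cells, 102, 101, 95.9 and 104 CPM in WT cells with OA, and 84.1, 79.5, 89.9 and 89.5 CPM in untreated WT cells. OA libraries were lower than untreated ones in KO cells and higher in WT cells, and no groups overlapped. The difference was -0.56 ± 0.06 (adjusted p = 1.52e-09). Eno1, enolase, showed the same crossing, -0.34 in KO and 0.19 in WT cells, for a difference of -0.53 ± 0.06 (adjusted p = 2.52e-08). Hk2, the hexokinase of activated T cells, differed by -0.33 ± 0.08 (adjusted p = 0.00227), and Aldoc, an aldolase of low level at 1.58 to 1.77 CPM in KO cells with OA and 2.72 to 3.88 CPM in untreated KO cells, by -1.12 ± 0.26 (adjusted p = 0.00264). The 2 genes above 0 were Mxi1, a repressor of Myc target genes, at 0.40 ± 0.06 (adjusted p = 1.02e-06), and Hif1a, the hypoxia factor, at 0.25 ± 0.05 (adjusted p = 0.00028).

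**Figure D3:**
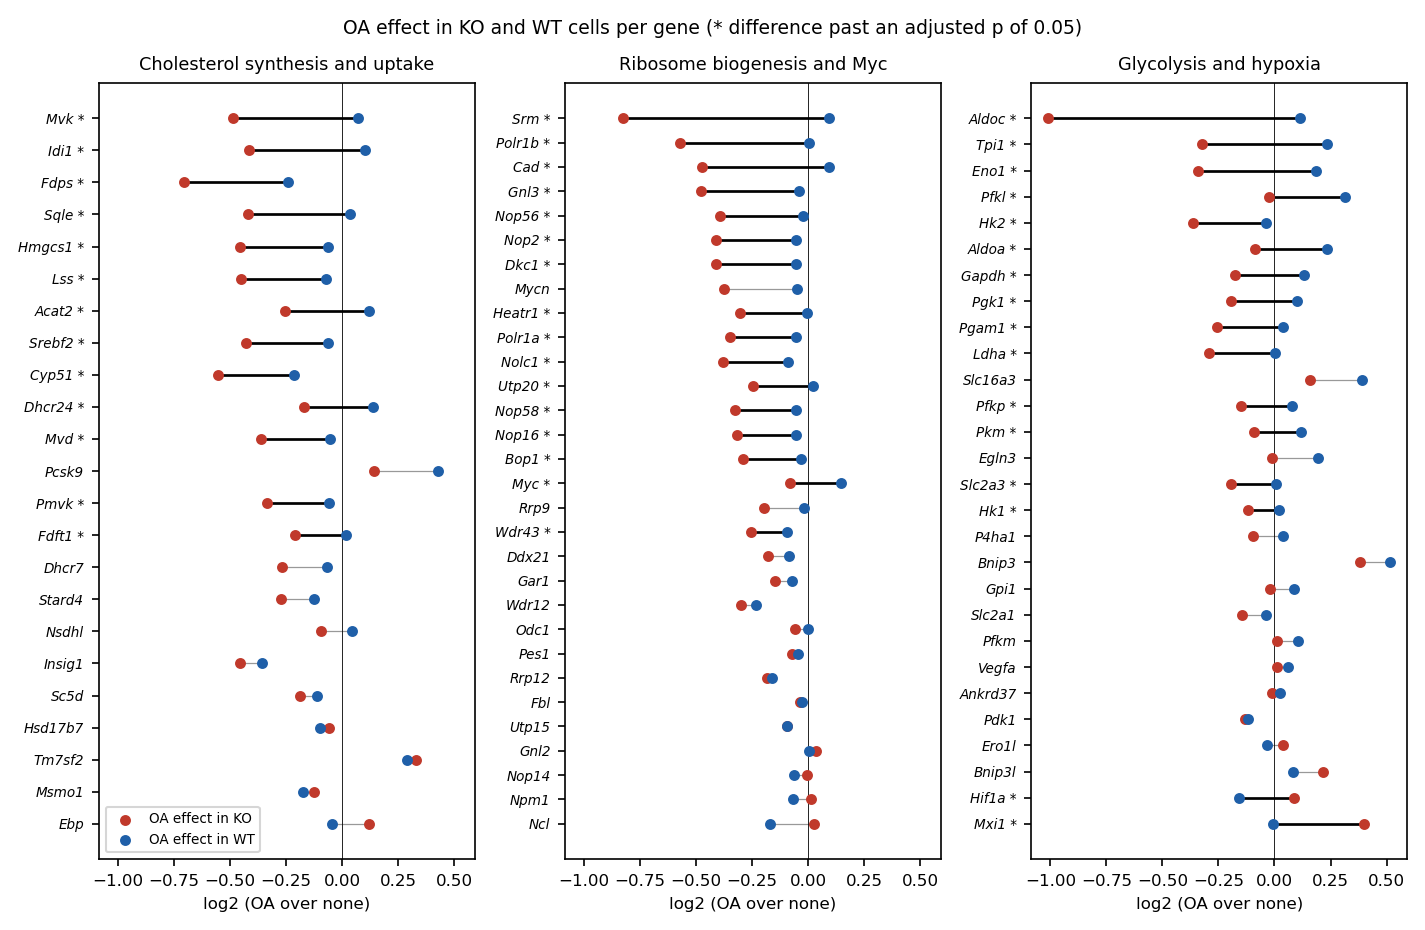
OA effect in KO cells (red) and in WT cells (blue), both log2 of OA over none, for tested genes of 3 lists, sorted by difference with the lowest at the top; black lines and stars mark called differences. In the cholesterol and ribosome lists most blue points lie near 0 and the red ones to the left, and in the glycolysis list blue points lie right of 0 for Tpi1, Eno1 and Aldoa.

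Lists of respiration and division had medians closer to 0. Of 40 nuclear genes of oxidative phosphorylation, 9 were below 0 and none above (14 and 2 at an unadjusted p under 0.05), with a median of -0.07, 4 were below without WT replicate 4 with OA, and 1 was above without KO replicate 3. Of 11 tested mitochondrially encoded genes, edgeR called 0, DESeq2 0 and limma-voom 0, and 0 had an unadjusted p under 0.05 in edgeR, but edgeR on the 15 libraries alone called 1 above 0. Genes of DNA replication gave 9 below and 1 above 0 of 33, with a median of -0.08, and 4 and 5 below without WT replicate 4 with OA and without KO replicate 1 with OA. The count above 0 was 0 without KO replicate 2 or 4, KO replicate 1 or 2 with OA, WT replicate 1 or 2, or WT replicate 4 with OA, and 2 without KO replicate 3 or WT replicate 3 or 4. Uhrf1, which maintains DNA methylation through replication, differed by -0.25 ± 0.04 (adjusted p = 6.55e-05). Genes of mitosis gave 7 below and 2 above 0 of 27, 1 above without KO replicate 2 with OA, with Plk1, a mitotic kinase, at -0.25 ± 0.06 (adjusted p = 0.00179).

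Among the largest positive differences were those of 2 Deltex genes, which encode ubiquitin ligases tied to Notch signalling and to T cell anergy. Dtx1 (chr5:120680202-120711927, minus strand) had 9.05, 8.88 and 9.04 CPM in KO cells with OA, 1.86, 1.96, 1.65 and 2.17 CPM in untreated KO cells, 13.1, 14.4, 14.2 and 15.5 CPM in WT cells with OA, and 5.66, 7.45, 7.99 and 6.24 CPM in untreated WT cells. OA libraries were higher in both genotypes, and all 4 groups were separate. The rise was 4.72-fold in KO and 2.09-fold in WT cells, a log2 difference of 1.18 ± 0.15 (adjusted p = 9.06e-08). Dtx4 (chr19:12466341-12501996, minus strand) had 11.9, 11.9 and 10.4 CPM in KO cells with OA, 3.98, 3.39, 3.12 and 2.73 CPM in untreated KO cells, 12.4, 12.5, 12.6 and 11.7 CPM in WT cells with OA, and 8.09, 9.53, 7.796 and 8.401 CPM in untreated WT cells. KO cells with OA reached the range of WT cells with OA, and untreated KO cells were lowest. Its difference was 1.25 ± 0.12 (adjusted p = 4.5e-10), and its KO over WT log2 ratio was -0.11 with OA, against -1.36 without it.

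The core Notch genes were not called. Notch1, the main Notch receptor of T cells, differed by -0.05 ± 0.05 and Rbpj, its DNA-binding partner, by 0.02 ± 0.05, and neither was called (adjusted p = 0.553 and 0.88). Several genes that TGF-beta signalling induces or that restrain it were above 0. Pmepa1, which holds back receptor SMADs, had 11.5, 13.1 and 11.5 CPM in KO cells with OA, 6.18, 6.64, 5.98 and 7.28 CPM in untreated KO cells, 13.96, 14.5, 14.9 and 15.8 CPM in WT cells with OA, and 16.9, 14.1, 14.9 and 15.6 CPM in untreated WT cells. KO cells without OA were lowest, and the WT groups overlapped. Its difference was 0.94 ± 0.10 (adjusted p = 2.9e-09). Ldlrad4, related to Pmepa1 and also a SMAD antagonist, differed by 0.87 ± 0.11 (adjusted p = 6.26e-08), and Skil, a SMAD co-repressor, by 0.31 ± 0.05 (adjusted p = 8.84e-06). Smad7, the inhibitory SMAD, was not called (0.22 ± 0.08, adjusted p = 0.0534), although 7 of 23 alternatives called it, among them those without WT replicate 4 (adjusted p = 0.0389) or WT replicate 2 with OA (adjusted p = 0.0163). Of the 20 tested genes of Notch, Deltex and TGF-beta signalling, 6 were above and 2 below 0, with a median of 0.07. The 2 below 0 were both TGF-beta genes, Tgfb1 and Tgfbr3, so called genes of this pathway lay on both sides. The count below 0 was 0 without KO replicate 2, KO replicate 3 with OA, WT replicate 1 or WT replicate 3 with OA, and 1 without KO replicate 1 or 4, KO replicate 1 or 2 with OA, WT replicate 2 or 4, or WT replicate 1, 2 or 4 with OA. Pmepa1 and Ldlrad4 are not in that list and were named for their size.

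**Figure D4:**
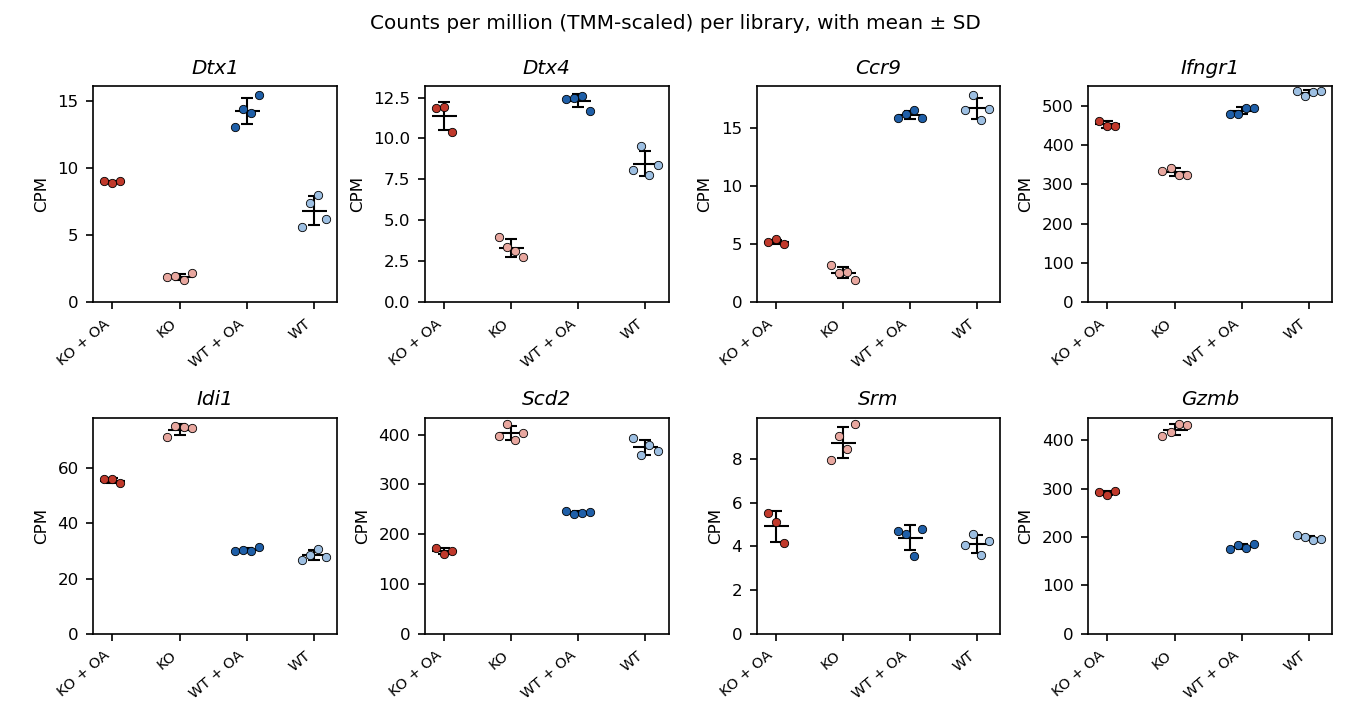
CPM per library of 8 genes in KO cells with OA, untreated KO cells, WT cells with OA and untreated WT cells, with the mean and SD as bars; every vertical axis starts at 0. Dtx1 and Scd2 move in both genotypes, Ccr9, Ifngr1, Idi1, Srm and Gzmb mainly in KO cells, and untreated KO cells stand apart from the other groups for Dtx4 and Srm.

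Srxn1, sulfiredoxin, which repairs oxidised peroxiredoxins and is induced by NRF2, had the largest positive difference among genes with a mean log2 CPM of at least 1. Its levels were low, 1.600, 1.55 and 2.01 CPM in KO cells with OA, 0.629, 0.956, 0.476 and 0.715 CPM in untreated KO cells, 1.03, 0.648, 0.593 and 1.08 CPM in WT cells with OA, and 0.966, 0.641, 0.684 and 1.04 CPM in untreated WT cells. KO cells with OA lay above the 3 other groups, which overlapped. The difference was 1.28 ± 0.30 (adjusted p = 0.00284). Of 25 tested NRF2 targets, 4 were above and 2 below 0, and 2 were above without KO replicate 1 or without KO replicate 3 with OA. The count below 0 was 4 without KO replicate 3 or without KO replicate 3 with OA, so that without the second of these libraries 2 were above and 4 below. Nqo1, a quinone reductase, differed by 0.63 ± 0.22 (adjusted p = 0.0472) and Nfe2l2, which encodes NRF2, by 0.21 ± 0.07 (adjusted p = 0.0271). Both calls were weak: Nqo1 was lost under 12 of 23 alternatives (highest adjusted p 0.138, with limma-voom), and Nfe2l2 without KO replicate 1, KO replicate 3 with OA or WT replicate 1 (highest adjusted p 0.0925). Tkt, transketolase of the pentose phosphate pathway, went the other way at -0.39 ± 0.06 (adjusted p = 1.93e-06).

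Both chains of the interferon gamma receptor were above 0. Ifngr1, the ligand-binding chain (chr10:19591949-19610229, plus strand), had 462, 448 and 448 CPM in KO cells with OA, 335, 343, 324 and 323 CPM in untreated KO cells, 480.0, 479, 495 and 496 CPM in WT cells with OA, and 539, 526, 535 and 537 CPM in untreated WT cells. OA libraries were higher in KO cells and lower in WT cells, and all 4 groups were separate. The OA effect was 0.45 ± 0.03 in KO and -0.13 ± 0.03 in WT cells, and the difference 0.58 ± 0.05 (adjusted p = 1e-12). Ifngr2, the signalling chain (chr16:91547072-91565169, plus strand), had 11.98, 11.6 and 13.01 CPM in KO cells with OA, 6.76, 6.33, 6.86 and 5.67 CPM in untreated KO cells, 20.7, 22.3, 21.8 and 23.5 CPM in WT cells with OA, and 20.5, 21.9, 22.4 and 23.6 CPM in untreated WT cells. The KO groups were separate, both lay below the WT groups, and the WT groups overlapped. Its difference was 0.93 ± 0.09 (adjusted p = 6.09e-10). RP23-353K11.3, a gene known by its clone name that lies upstream of Ifngr1 on the same strand, differed by 0.85 ± 0.09 (adjusted p = 1.26e-08).

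Called interferon response genes lay on both sides of 0. Of 39 tested genes, 7 were above and 4 below 0, with a median of 0.09, and 2 were below without WT replicate 4 with OA. The 7 above 0 were Irf1, Gbp2, Gbp3, Gbp7, Iigp1, Igtp and Irgm1: a transcription factor and guanylate-binding or immunity-related GTPases that defend against intracellular microbes and that interferon gamma is known to induce. The 4 below 0 were Mx1, Oas2, Oas3 and Cmpk2, antiviral genes known as targets of type I interferon. The other 28 tested genes were not called, and whether the calls sort by kind of interferon was not tested. The call of Oas2 was lost under 10 of 21 alternatives (highest adjusted p 0.108, without KO replicate 1 with OA) and that of Cmpk2 under 4 of 23 (highest adjusted p 0.0877, without KO replicate 3 with OA), and that of Gbp2 was lost without KO replicate 2 with OA (adjusted p = 0.0843). Iigp1 had 197, 197 and 193 CPM in KO cells with OA, 109.7, 112, 112 and 112 CPM in untreated KO cells, 228, 229, 231 and 229 CPM in WT cells with OA, and 188, 189, 191 and 184 CPM in untreated WT cells. OA libraries were higher in both genotypes with no overlap, and the difference was 0.53 ± 0.04 (adjusted p = 7.84e-12). Mx1 had 4.34 to 5.06 CPM in KO cells with OA and 8.55 to 9.77 CPM in untreated KO cells, against 5.09 to 7.23 CPM in WT cells with OA and 6.403 to 6.69 CPM in untreated WT cells. The KO groups were separate and the WT groups overlapped. Its difference was -0.83 ± 0.13 (adjusted p = 2.05e-05). Ifng, the cytokine gene, was close to undetected at 0.393 to 0.775 CPM in KO cells with OA and 0.288 to 0.585 CPM in untreated KO cells, and was not called (adjusted p = 0.874, 95% interval -1.33 to 1.91).

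Promoters of 3 called interferon genes are shown for the gamma-activated sequence, an element of promoters that respond to interferon gamma. The letters TTCNNNGAA, which read the same on both strands, occur within 250 bases before the RefSeq start in 6.05% of promoters of tested genes, in 7 of the 27 interferon response genes with a promoter in the RefSeq table, and in 3 of 6 of those above 0. Matches are in capitals, on the plus strand of GRCm38.p6. The Irf1 window is chr11:53769904-53769952, the Igtp window chr11:58199491-58199539 and the Gbp7 window, with 2 matches, chr3:142530210-142530277. A match describes letters and says nothing of binding.
Irf1: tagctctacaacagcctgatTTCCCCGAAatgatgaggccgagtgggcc
Igtp: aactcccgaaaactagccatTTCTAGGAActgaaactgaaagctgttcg
Gbp7: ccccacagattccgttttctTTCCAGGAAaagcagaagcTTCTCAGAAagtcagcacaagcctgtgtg
The differences of these genes were 0.18 ± 0.05 for Irf1 (adjusted p = 0.00547), 0.40 ± 0.04 for Igtp (adjusted p = 1.06e-08) and 0.36 ± 0.05 for Gbp7 (adjusted p = 4.5e-07). All 3 were higher with OA in KO cells, by 0.30, 0.46 and 0.59, and exons of Gbp7 overlap those of Gm43802.

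Cytokine receptor genes were called in both directions. Of 24 tested receptor and suppressor genes, 5 were above and 8 below 0, and 4 and 5 were below without KO replicate 1 with OA and without WT replicate 1 with OA. The genes below 0 included the interleukin-2 receptor chains Il2ra, Il2rb and Il2rg, at -0.14, -0.15 and -0.23, and Il7r, the receptor for the survival cytokine interleukin-7. The calls of Il2ra and Il2rb were each lost under 17 of 23 alternatives (highest adjusted p 0.12 with no filter and 0.164 without KO replicate 4), and exons of Il2rg overlap those of Gm20489. Il7r fell with OA in both genotypes, with OA effects of -0.79 in KO and -0.44 in WT cells and a difference of -0.35 ± 0.06 (adjusted p = 3.38e-05). The chains of the interleukin-12 receptor parted: Il12rb1 was below 0 at -0.41 ± 0.08 (adjusted p = 0.000208) and Il12rb2 above it at 0.17 ± 0.05 (adjusted p = 0.0152), although Il12rb2 was not called without KO replicate 2 with OA (adjusted p = 0.0703) and 1519 of its exon bases overlap those of Serbp1. Socs3, a feedback inhibitor of cytokine signalling, had 25.6, 25.2 and 25.8 CPM in KO cells with OA, 18.2, 20.3, 18.4 and 19.1 CPM in untreated KO cells, 29.7, 29.05, 30.2 and 29.6 CPM in WT cells with OA, and 34.2, 32.8, 31.99 and 32.97 CPM in untreated WT cells. OA libraries were higher in KO cells and lower in WT cells without overlap. Its difference was 0.58 ± 0.07 (adjusted p = 1.98e-08). Cish, another such inhibitor, differed by 0.52 ± 0.10 (adjusted p = 0.000156).

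**Figure D5:**
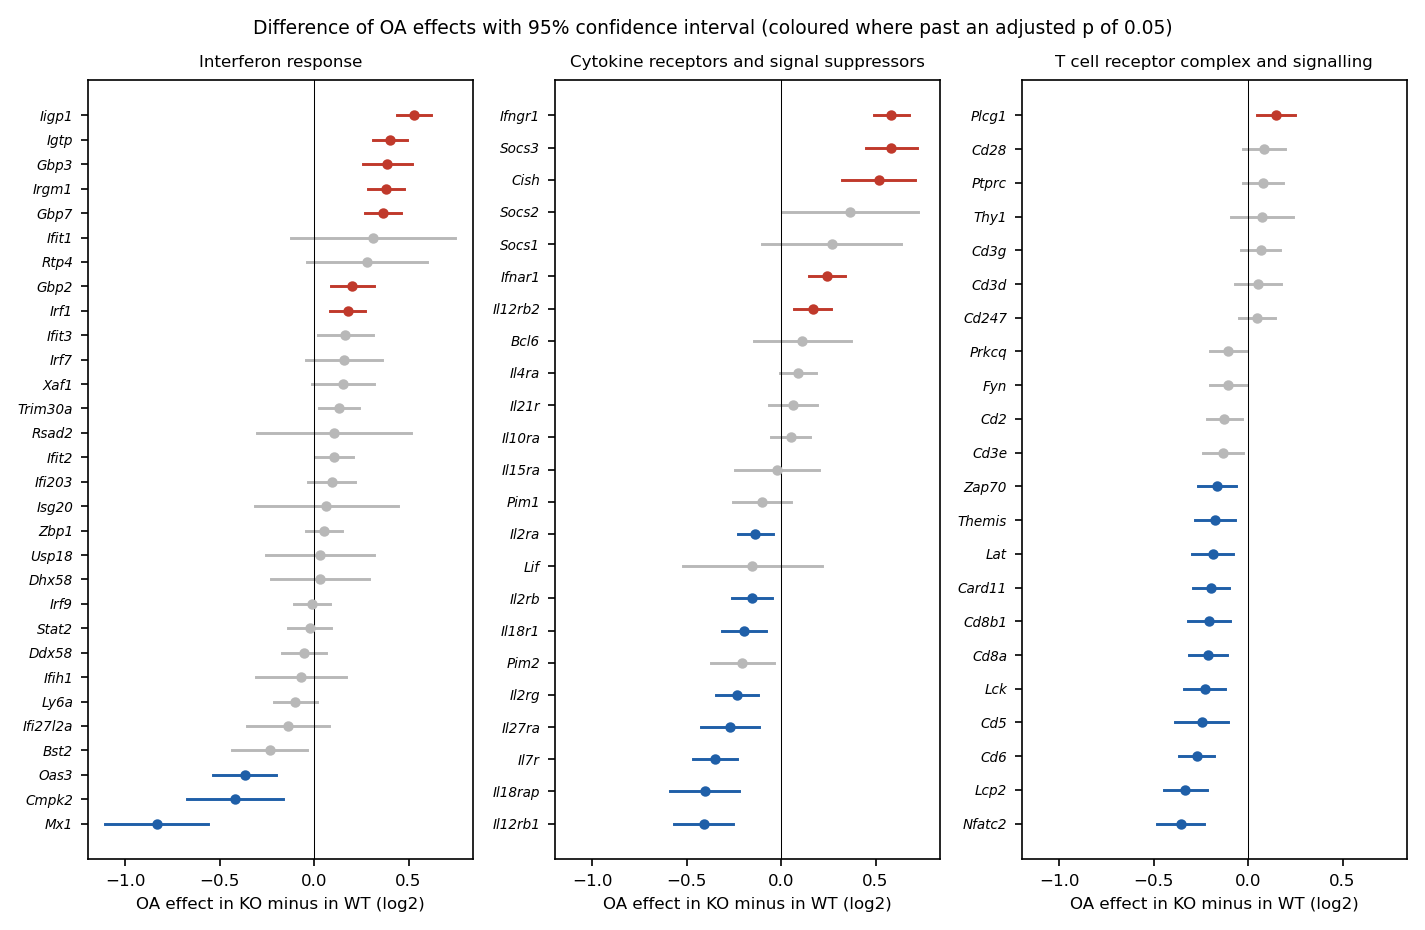
Difference of OA effects (KO minus WT, log2) with its 95% confidence interval for tested genes of 3 lists with a mean log2 CPM of at least 1, red where called above 0 and blue where called below 0. The GTPase genes lead the interferon panel and Mx1 ends it, Ifngr1 and Socs3 lead the cytokine panel, and most called genes of the T cell receptor panel lie below 0.

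Most called genes of the T cell receptor machinery were below 0, by small amounts. Of 23 tested genes, 11 were below and 2 above 0 (8 to 12 below over all alternatives), with a median of -0.13, and 1 was above without any single KO library with OA, KO replicate 1, 2 or 4, WT replicate 1, 2 or 3, or WT replicate 3 with OA. Cd8a, the co-receptor chain that defines these cells, had 305 to 313 CPM in KO cells with OA and 333 to 346 CPM in untreated KO cells, against 371 to 399 CPM in WT cells with OA and 350.1 to 374 CPM in untreated WT cells. Its difference was -0.21 ± 0.05 (adjusted p = 0.00264). Lcp2, the SLP-76 adaptor, differed by -0.33 ± 0.06 (adjusted p = 3.67e-05), Nfatc2, a calcium-driven transcription factor, by -0.36 ± 0.06 (adjusted p = 6.55e-05), and Cd6, a co-receptor that tunes signalling, by -0.27 ± 0.05 (adjusted p = 4.27e-05). Cd3e, a core chain of the receptor, was not called (-0.13 ± 0.05, adjusted p = 0.0854, 0.0342 without WT replicate 3). Trat1, which stabilises the receptor complex, had 0.737, 0.398 and 0.466 CPM in KO cells with OA and 1.49, 1.34, 1.84 and 1.48 CPM in untreated KO cells, and its difference of -0.94 ± 0.26 (adjusted p = 0.0106) was not called without KO replicate 2 with OA (adjusted p = 0.0819).

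Some cytotoxic genes were below 0. Gzmb, granzyme B, the killing protease (chr14:56258856-56262260, minus strand), had 293, 287 and 295 CPM in KO cells with OA, 408, 417, 433 and 431 CPM in untreated KO cells, 176, 183, 177 and 185 CPM in WT cells with OA, and 204, 199.8, 194 and 195 CPM in untreated WT cells. OA libraries were lower in both genotypes and no groups overlapped. The OA effect was -0.53 ± 0.03 in KO and -0.14 ± 0.03 in WT cells, a difference of -0.40 ± 0.05 (adjusted p = 4.31e-08). Of 27 tested effector genes, 6 were below 0 and none above, but 2 were below without WT replicate 2 with OA, and 3 without KO replicate 4, KO replicate 1 or 2 with OA, WT replicate 1 or 2, or WT replicate 1 or 4 with OA. With replicate number as a block, and with upper quartile scaling, the count was 3. Prf1, perforin, and Tbx21, which encodes T-bet, were not called (-0.10 ± 0.21 and -0.10 ± 0.07, adjusted p = 0.837 and 0.423). The summed level of 8 NK cell markers was 28.04 to 29.3 CPM in KO cells with OA and 39.5 to 42.9 CPM in untreated KO cells, against 16.8 to 18.4 CPM in WT cells with OA and 20.3 to 22.5 CPM in untreated WT cells. This sum was almost all Eomes, which averaged 26.6 CPM in KO cells with OA and 39.65 CPM in untreated KO cells. In WT cells Eomes averaged 15.4 CPM with OA and 19.3 CPM without. The next highest mean of a marker was 0.982 CPM, for Tyrobp in untreated WT cells, so the sum does not measure NK cells. The part of this sum in the result was not tested.

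Inhibitory receptors gave 5 below and 3 above 0 of 21. Pdcd1, which encodes PD-1, had 9.56, 10.7 and 10.1 CPM in KO cells with OA, 13.3, 13.04, 12.3 and 12.6 CPM in untreated KO cells, 10.1, 11.01, 11.3 and 11.6 CPM in WT cells with OA, and 10.2, 10.4, 11.3 and 11.3 CPM in untreated WT cells. KO cells with OA lay below untreated KO cells with no overlap, and the WT groups overlapped. The difference was -0.36 ± 0.10 (adjusted p = 0.0109). Cd160 had 15.4 to 16.4 CPM in KO cells with OA and 17.9 to 20.3 CPM in untreated KO cells, against 32.9 to 35.6 CPM in WT cells with OA and 25.4 to 27.5 CPM in untreated WT cells. The direction of its OA effect was opposite in the genotypes, with a difference of -0.60 ± 0.08 (adjusted p = 2.48e-07). Irf4, a transcription factor induced by receptor signals, differed by -0.44 ± 0.06 (adjusted p = 1.49e-06). Above 0 were Ctla4, a brake on CD28 co-stimulation, at 0.29 ± 0.05 (adjusted p = 9.59e-05), and Nt5e, CD73, which makes adenosine, at 0.55 ± 0.11 (adjusted p = 0.000365).

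Genes of naive and memory T cells gave 7 above and 5 below 0 of 24, with a median of 0.04. Lef1, a transcription factor of naive cells, had 319 to 325 CPM in KO cells with OA, 253 to 276 CPM in untreated KO cells, 242 to 257 CPM in WT cells with OA, and 265 to 289 CPM in untreated WT cells. The OA effect was 0.27 in KO and -0.17 in WT cells, a difference of 0.44 ± 0.05 (adjusted p = 1.22e-08), and exons of Lef1 overlap those of Gm43352. S1pr1, the receptor for exit from lymphoid organs, differed by 0.32 ± 0.05 (adjusted p = 3.32e-06). Tcf7, partner of Lef1 and marker of stem-like cells, had 574, 565 and 573 CPM in KO cells with OA, 592, 578, 614 and 639.5 CPM in untreated KO cells, 727, 728, 753 and 748 CPM in WT cells with OA, and 791, 788, 745 and 781 CPM in untreated WT cells. Groups overlapped within WT, and its difference of -0.02 ± 0.05 was not called (adjusted p = 0.9, 95% interval -0.12 to 0.09). The genes below 0 included Eomes and Id3, regulators of memory cells, at -0.25 and -0.53. Eomes was not called without KO replicate 1 with OA, WT replicate 2, or WT replicate 1 or 2 with OA (highest adjusted p 0.07), and Id3 not without KO replicate 2 with OA, WT replicate 2 or WT replicate 2 with OA (highest adjusted p 0.075). The count of 5 below 0 was 2 without WT replicate 2 and 3 without KO replicate 2 with OA, WT replicate 1 with OA or WT replicate 2 with OA.

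Among homing receptors, Ccr9, which guides T cells to the gut (chr9:123678439-123784330, plus strand), had 5.18, 5.41 and 5.03 CPM in KO cells with OA, 3.197, 2.51, 2.58 and 1.94 CPM in untreated KO cells, 15.8, 16.2, 16.5 and 15.8 CPM in WT cells with OA, and 16.5, 17.8, 15.7 and 16.6 CPM in untreated WT cells. KO cells rose with OA without overlap and stayed far below both WT groups, which overlapped. The difference was 1.08 ± 0.12 (adjusted p = 1.76e-08), and its KO over WT log2 ratio was -1.63 with OA, against -2.71 without it. Of its exon bases, 18.8% overlap Gm17021 on the other strand, and the strand setting of the counting is not given in the sources used here. Called integrin genes lay on both sides of 0. Itgae, CD103, which holds T cells in epithelium, differed by -0.32 ± 0.05 (adjusted p = 1.54e-06), its partner Itgb7 by -0.28 ± 0.05 (adjusted p = 0.000153), and Itgb3, the integrin beta-3 chain, by 0.20 ± 0.05 (adjusted p = 0.00451). Of 25 tested chemokine receptor and integrin genes, 4 were above and 6 below 0, and 3 were below without KO replicate 2 or without WT replicate 2.

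Further genes had differences of the same size or as small a p. Vps37b, a subunit of the endosomal sorting machinery, rose in KO cells, with 346 to 360.3 CPM in KO cells with OA, 224 to 232 CPM in untreated KO cells, 358 to 381 CPM in WT cells with OA, and 351 to 372 CPM in untreated WT cells. Untreated KO cells lay below the other groups, which overlapped, and the difference was 0.62 ± 0.05 (adjusted p = 1e-12), but 32.9% of its exon bases overlap those of Hip1r. Sh2d2a, an adaptor that binds LCK, had 322 to 331 CPM in KO cells with OA, 181 to 201 CPM in untreated KO cells, 266 to 275 CPM in WT cells with OA, and 233 to 242 CPM in untreated WT cells. OA libraries were higher in both genotypes, more so in KO cells (0.61 ± 0.05, adjusted p = 7.84e-12). P2ry10, a receptor of lysophosphatidylserine and related lipids, had 125 to 127 CPM in KO cells with OA, 88.00 to 99.9 CPM in untreated KO cells, 152 to 159 CPM in WT cells with OA, and 169 to 175 CPM in untreated WT cells. OA libraries were higher in KO cells and lower in WT cells without overlap (0.57 ± 0.05, adjusted p = 1.64e-11).

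Plaur, the urokinase receptor, was above 0 at 0.94 ± 0.10 (adjusted p = 1.38e-08), with 13.01 to 13.7 CPM in KO cells with OA and 5.49 to 7.62 CPM in untreated KO cells, against 43.1 to 48.8 CPM in WT cells with OA and 41.8 to 49.2 CPM in untreated WT cells. Also above 0 were Camk2n1, an inhibitor of calmodulin-dependent kinase II, at 0.89 ± 0.19 (adjusted p = 0.000898), the adaptor Sh2d4b at 0.90 ± 0.22 (adjusted p = 0.00385) and the membrane protein Tmem253 at 0.90 ± 0.23 (adjusted p = 0.00659), whose exons overlap those of Zfp219. Sh3bp5, a binding partner of BTK and of JNK on mitochondria, differed by 0.57 ± 0.06 with OA effects of 0.43 in KO and -0.14 in WT cells (adjusted p = 3.51e-10).

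Tex15, a germ cell gene, had the lowest called difference among genes with a mean log2 CPM of at least 1. It had 2.99, 2.07 and 2.995 CPM in KO cells with OA, 5.29, 6.498, 5.95 and 5.21 CPM in untreated KO cells, 2.68, 2.64, 2.81 and 2.97 CPM in WT cells with OA, and 2.85, 2.53, 2.57 and 2.82 CPM in untreated WT cells. Untreated KO cells stood above the 3 other groups, which overlapped, and the difference was -1.15 ± 0.18 (adjusted p = 1.32e-05). Adap1, which binds phosphatidylinositol phosphates and controls ARF6, was also highest in untreated KO cells, with 7.79 to 8.102 CPM in KO cells with OA, 13.7 to 17.2 CPM in untreated KO cells, 8.23 to 9.36 CPM in WT cells with OA and 8.07 to 8.93 CPM in untreated WT cells (-0.97 ± 0.11, adjusted p = 1.22e-08). Fosb, an immediate early transcription factor, differed through WT cells. It had 2.105 to 2.26 CPM in KO cells with OA and 1.67 to 2.295 CPM in untreated KO cells, which overlapped, against 3.11 to 4.08 CPM in WT cells with OA and 1.56 to 1.73 CPM in untreated WT cells, which did not (-0.92 ± 0.22, adjusted p = 0.00351).

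The remaining genes with the lowest differences were Gucy1a3, a subunit of the nitric oxide receptor, at -0.91 ± 0.20, Dctd, a deaminase of pyrimidine nucleotides, at -0.88 ± 0.19, Smpdl3b, a sphingomyelinase-like lipid enzyme, at -0.87 ± 0.25, Sema4c, a semaphorin, at -0.83 ± 0.18, and Asb2, a ubiquitin ligase subunit, at -0.83 ± 0.18. Their adjusted p ran from 0.00115 for Sema4c to 0.0138 for Smpdl3b, and Smpdl3b was not called without KO replicate 3 with OA (adjusted p = 0.0785). Nudt16l1, a regulator of DNA repair, had opposite OA effects of -0.26 in KO and 0.32 in WT cells (-0.58 ± 0.13, adjusted p = 0.0017), and its exons overlap those of Gm16861.

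The series is titled for ferroptosis, a death by lipid peroxidation, and genes of that process gave few calls. Of 25 tested members, 1 was above and 2 below 0, a share near the background of 12.4%. The 3 were Slc3a2, the partner chain of the cystine importer, at 0.18 ± 0.05 (adjusted p = 0.0208), Coq7, of ubiquinone synthesis, at -0.31 ± 0.10 (adjusted p = 0.0308), and Nfs1, a cysteine desulfurase, at -0.31 ± 0.10 (adjusted p = 0.0284). Each of these calls was lost without some libraries, and exons of Nfs1 overlap those of Gm28036. None was above 0 without KO replicate 2, KO replicate 1 or 3 with OA, or WT replicate 1, and 2 were above without KO replicate 3, WT replicate 4 or WT replicate 2 with OA. None was below without WT replicate 2 or WT replicate 4 with OA, and 1 was below without KO replicate 1, 3 or 4, KO replicate 2 or 3 with OA, WT replicate 4, or WT replicate 2 with OA. Gpx4, the peroxidase that removes lipid peroxides, had 42.4, 37.8 and 40.2 CPM in KO cells with OA, 44.2, 44.4, 50.1 and 42.6 CPM in untreated KO cells, 40.1, 39.5, 36.97 and 40.6 CPM in WT cells with OA, and 38.9, 42.1, 41.9 and 39.2 CPM in untreated WT cells. The WT groups overlapped, the KO groups lay side by side without overlap, and the difference of -0.13 ± 0.07 was not called (adjusted p = 0.236, 95% interval -0.27 to 0.01). Acsl4, which activates the polyunsaturated fatty acids that feed the process, differed by -0.11 ± 0.05 and was not called (adjusted p = 0.204). Slc7a11, the cystine importer, was too low to judge at 0.293 to 0.393 CPM in KO cells with OA and 0.0956 to 0.681 CPM in untreated KO cells, with a 95% interval of -0.47 to 1.66 (adjusted p = 0.545). Of 35 tested genes of glycerophospholipid, lysophosphatidate and sphingolipid metabolism, the home of Plpp1, 5 were called, or 14.3%, near the 12.4% of all genes. The median difference of this list was -0.01. S1pr1 was above 0 and 4 genes were below. The 4 were Dgkz, a diacylglycerol kinase, at -0.30 ± 0.05 (adjusted p = 4.84e-05), Pcyt2, of phosphatidylethanolamine synthesis, at -0.31 ± 0.07 (adjusted p = 0.00131), Plppr3, a relative of Plpp1, at -0.35 ± 0.08 (adjusted p = 0.00225), and Lpin2, a phosphatidate phosphatase, at -0.19 ± 0.06 (adjusted p = 0.028). Exons of Plppr3 overlap those of Ptbp1.

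The other lists gave, below and above 0, 5 and 1 of 22 for NF-kB and TNF signalling, 4 and 5 of 26 for immediate early genes, 6 and 1 of 29 for p53 targets and apoptosis, 4 and 2 of 23 for endoplasmic reticulum chaperones, 4 and 1 of 20 for heat shock chaperones, 2 and 4 of 32 for lysosome and autophagy, 0 and 2 of 17 for iron handling, and 1 and 0 of 5 for alpha-arrestins. The single heat shock call above 0 was lost without KO replicate 1, 2, 3 or 4, KO replicate 2 with OA, WT replicate 1, 2 or 3, or WT replicate 1, 2 or 3 with OA, and with DESeq2, limma-voom, the replicate block, the stricter filter and the 15 libraries alone. Of the 2 iron genes, Slc40a1, the iron exporter ferroportin, at 1.84 ± 0.61 (adjusted p = 0.0379), lost its call under 11 of 21 alternatives (highest adjusted p 0.0981). The iron count above 0 was 1 without KO replicate 1, 2 or 3, any single KO library with OA, WT replicate 2 or 4, or WT replicate 2 or 4 with OA, and 1 iron gene was below 0 without KO replicate 3, KO replicate 1 with OA or WT replicate 3 with OA. The lysosome count below 0 was 1 without KO replicate 4, KO replicate 3 with OA, WT replicate 2, or WT replicate 2 or 4 with OA, and the count of immediate early genes below 0 was 2 with the stricter filter. The NF-kB count below 0 was 2 without KO replicate 2 with OA or WT replicate 4 with OA, and 3 without KO replicate 2, WT replicate 2 or 4, or WT replicate 1 or 2 with OA. The count of endoplasmic reticulum chaperones below 0 was 1 without WT replicate 4 with OA, and 2 without KO replicate 1 or 2, KO replicate 1 or 2 with OA, WT replicate 2 or 4, or WT replicate 1 with OA, and 1 was above without KO replicate 2 with OA. The integrated stress response count below 0 was 5 without KO replicate 2 with OA or WT replicate 2 with OA.

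Some members of these lists stood out in opposite directions. Jun, a subunit of the AP-1 transcription factor, had 47.2 to 49.4 CPM in KO cells with OA, 33.9 to 35.3 CPM in untreated KO cells, 41.2 to 47.8 CPM in WT cells with OA, and 43.6 to 45.99 CPM in untreated WT cells. Its OA effects were 0.48 in KO and -0.01 in WT cells, a difference of 0.49 ± 0.06 (adjusted p = 1.9e-07), and Klf6, a zinc finger factor, differed by 0.25 ± 0.06 (adjusted p = 0.00183). Egr3, induced by receptor signals and tied to anergy, was below 0 like Fosb, at -0.61 ± 0.13 (adjusted p = 0.00109). Bcl2l11, which encodes the killer protein BIM, was above 0 at 0.28 ± 0.05 (adjusted p = 0.000182), and Bcl2l1, which encodes the survival protein BCL-XL, below 0 at -0.39 ± 0.09 (adjusted p = 0.00323). Tnfaip3, the NF-kB inhibitor A20, was above 0 at 0.25 ± 0.05 (adjusted p = 0.00049), and Cd83, an activation marker, below 0 at -0.68 ± 0.17 (adjusted p = 0.00495).

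The stress response list also held called genes of serine and glycine synthesis. Psat1 and Phgdh, the enzymes that make serine, and Shmt2, which turns it into glycine in mitochondria, differed by -0.38 ± 0.07, -0.24 ± 0.05 and -0.30 ± 0.06 (adjusted p = 0.000307, 0.00123 and 0.000238). Cct3 and Cct8, subunits of the chaperonin that folds actin and tubulin, differed by -0.28 ± 0.05 and -0.22 ± 0.05 (adjusted p = 8.87e-05 and 0.00166). In the respiratory chain, Cyc1, cytochrome c1 of complex III, differed by -0.42 ± 0.09 (adjusted p = 0.0013), and Ucp2, a mitochondrial carrier, by -0.34 ± 0.06 (adjusted p = 9.26e-05). Among lysosomal genes, Ctss, cathepsin S, was above 0 at 0.26 ± 0.05 (adjusted p = 0.000139), and Ctsd, cathepsin D, below 0 at -0.28 ± 0.05 (adjusted p = 0.000269), with 34.4% of exon bases in common with RP23-145I16.3. Txnip, an alpha-arrestin that limits glucose uptake, differed by -0.21 ± 0.05 (adjusted p = 0.00225), and its exons overlap those of Gm15441.

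Markers of granulocytes and red cells were near 0, while other lists held a few expressed genes. The summed B cell level of 268 to 319 CPM over the 15 libraries was almost all Ighm, with Ms4a1 at 0 in 13 of them. The summed level of 8 granulocyte markers was 0.0842 to 0.968 CPM over the 15 libraries, with S100a8, S100a9, Ly6g and Retnlg at 0 in all of them, and that of 8 red cell markers was 0.629 to 1.64 CPM. Among the tested markers of dendritic cells, macrophages, granulocytes, red cells and stroma, the smallest adjusted p of a difference was 0.0512, for Batf3, a transcription factor of dendritic cells. Outside the CD8 T cell list, the other marker lists held 4 called genes. They were Zbtb7b of the CD4 T cell list at -0.42 ± 0.14 (adjusted p = 0.0405), Ighm at -0.14 ± 0.05 (adjusted p = 0.0405), Eomes of the NK cell list, and Itgb3 of the platelet list. The call of Zbtb7b was lost under 14 of 22 alternatives (highest adjusted p 0.122) and that of Ighm under 16 of 23 (highest adjusted p 0.162), most of them left-out libraries. The summed dendritic cell level was 15.998 to 17.7 CPM in KO cells with OA and 23.3 to 26.7 CPM in untreated KO cells, against 28.2 to 30.0 CPM in WT cells with OA and 33.7 to 37.7 CPM in untreated WT cells. The summed level of the 10 CD8 T cell markers was 2513 to 2587 CPM in KO cells with OA and 2726 to 2798 CPM in untreated KO cells, against 2848 to 3029 CPM in WT cells with OA and 2883 to 3006 CPM in untreated WT cells. Among these markers Cd8a, Cd8b1, Cd5 and Lck were called below 0. The part of these shifts in the results was not tested.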

How the data were processed

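Poly(A) RNA from splenic CD8+ T cells was sequenced after TRIzol extraction and stranded library preparation, per the labels' protocols. The authors deposited one table of raw counts per gene. Per the submitters' processing notes, Trimmomatic 0.36, featureCounts of Subread 1.5.1 and GRCm38 were used; the sources used here give no aligner, annotation, or strand and read-pair settings.

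All 23 libraries were fitted with 6 group means in edgeR 4.0.16 (R 4.3.3; TMM factors, filterByExpr with a minimum count of 10, robust quasi-likelihood), giving 17 residual degrees of freedom and a common biological coefficient of variation of 4.97%. The contrast was (KO with OA minus KO) minus (WT with OA minus WT), adjusted by Benjamini-Hochberg over 18015 of 49492 genes, which held 99.964% of counts. Standard errors are the log2 difference divided by the square root of F. CPM used the TMM factors. The labels do not say whether libraries are separate cultures. Between 66.5 and 70.5% of counts from 1 to 19 were even; the cause was not tested.

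Alternatives were RLE and upper quartile factors, no and a stricter filter, the 15 libraries alone, replicate number as a block, DESeq2 1.42.0, limma-voom 3.58.1, and leaving out each library. The code was tested on simulated data. Exon overlaps, of which only some are named above, came from GenomicRanges 1.54.1, and promoters and coordinates from RefSeq and annotation tables on GRCm38.

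Members and the 33 lists were chosen with earlier results of these data known. Named genes were 10 subject genes; among called genes with a mean log2 CPM of at least 1, leaving out predicted genes, pseudogenes and receptor segments, the 12 highest and 12 lowest differences, the 6 smallest adjusted p, and up to 6 with opposite OA effects; and up to 4 per list. Other list members, and those given as not called, were named after their values were seen. A few list members count in the totals but are not reported here by name.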

Additional observations from a re-analysis of the deposited data

Results flagged for a closer look

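In 339 groups of 4 libraries, over 108 genes and 5 library measures, 24 had a single library far from the other 3, and chance alone gives about 1 in 20 such groups. A single flag below is therefore no result by itself.

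Of these, 10 belong to the transcripts Gm10718, Gm10800, Gm10801, Gm21738 and Gm26870, high in KO replicate 4 and in WT replicate 1 with OA. They moved together and are not 10 separate flags. These 5 predicted genes lie outside the naming rules and were added to the genes examined, so their flags cannot be set against chance. In KO replicate 4 they stood at 23.9, 234.6, 29.8, 23.6 and 44.6 CPM, where the other untreated KO libraries had at most 1.19, 12.4, 1.91, 1.06 and 2.23 CPM. In WT replicate 1 with OA they stood at 9.11, 93.2, 14.3, 9.30 and 18.7 CPM, where the other WT libraries with OA had at most 1.90, 23.1, 3.52, 1.69 and 4.05 CPM. No difference of OA effects was called at any of the 5.

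Single libraries of untreated KO cells stood apart for Hk2 (replicate 1, 32.3 CPM), Ncl (replicate 4, 8260 CPM, low), Rbpj (replicate 3, 121.8 CPM) and Myb (replicate 3, 335.6 CPM). Among WT cells with OA they did so for Cxcr4 (replicate 4, 8.13 CPM, low) and Atf4 (replicate 4, 97.5 CPM). Among untreated WT cells they did so for Camk2n1 (replicate 1, 5.404 CPM), Insig1 (replicate 1, 13.9 CPM, low), Fads2 (replicate 1, 6.35 CPM), Sqle (replicate 2, 12.4 CPM), Fosb (replicate 3, 1.56 CPM, low), Mx1 (replicate 3, 6.40 CPM, low), Smad7 (replicate 3, 31.8 CPM) and Slc7a11 (replicate 4, 0.954 CPM).

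The OA effect differed between the genotypes, by the test of the difference itself, at 1028 genes above and 1199 below 0. Among genes whose OA effects were called in opposite directions, the log2 differences were 0.85 for RP23-353K11.3, -0.60 for Cd160, 0.58 for Ifngr1, 0.58 for Socs3, -0.58 for Nudt16l1 and 0.57 for Sh3bp5.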

How the results depend on the processing

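The counts of 1028 genes above and 1199 below 0 stayed within 1.5 times under every alternative. They were 1090 and 1099 with RLE factors, 1260 and 961 with upper quartile factors, 1006 and 1103 with no filter, 1197 and 1162 with the stricter filter, 1269 and 1035 with the 15 libraries alone, 1254 and 1275 with DESeq2 (4545 genes without an adjusted p), and 1158 and 1277 with limma-voom. Leaving out 1 library gave 767 to 1129 above and 835 to 1248 below 0. Same-numbered libraries did not consistently deviate together: 7 of 21 correlations exceeded 0.1, over a range of -0.37 to 0.29 at 8743 genes. With 3 or 4 libraries per group these correlations cannot exclude a pairing by number. With the replicate number as a block 901 genes were above and 1057 below 0. Of 186 named or cited genes with a call, 143 were called under every alternative that gave a value, and none of the 186 changed sign. These genes were called in the main fit and refitted on largely the same libraries, so this is no independent check. Of the 30 named genes without a call, 11 changed sign. KO cells with OA rest on 3 libraries, and the lowest total, 1645, came without the second of them.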
